A study of Mus musculus with 24 samples.

Results

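The male arm of a mouse study of cancer-associated muscle loss compared gastrocnemius muscle, the main calf muscle, between tumour-bearing and control animals. The 12 mice were males of the C57BL6 strain with no engineered allele named in the labels. At 7 weeks of age 6 of them received LLC1 cells under the skin, the mouse Lewis lung carcinoma line, which grows as a tumour in this strain, and 6 received phosphate-buffered saline as vehicle. The tumours then grew for 3 weeks before the muscle was taken, so a single time point was measured. The genes described are the autosomal genes with at least 1 CPM (counts scaled to a library of 1 mega-count) in at least 6 of these 12 libraries. This leaves 13593 of the 43346 genes in the table. Neither group labels nor test results were used in that choice. Of these, 11891 are protein-coding genes. At the edge of the rule, the sixth-highest level was 1.0029 CPM for the gene just inside (Dclk2) and 0.9951 CPM for the gene just outside (Layn). A further 466 genes on other chromosomes reached the same level and are not described. Of the 13593 genes, 30 reached 1 CPM in LLC1 mice alone, against 7 in vehicle mice alone. Such genes entered through 1 group only, so the rule itself sets their groups apart.

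Skeletal muscle is the body's largest store of protein, and its fibres shrink when protein breakdown exceeds protein synthesis. Breakdown runs mainly through the ubiquitin-proteasome system, in which muscle-specific ligases tag proteins for a barrel-shaped protease, and through autophagy, which delivers cell contents to the lysosome. In muscle of tumour-bearing animals, cytokines of the IL-6 family, glucocorticoids and members of the activin family are known to act on these pathways, many of them through FoxO and STAT transcription factors.

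Libraries were sequenced to 30.8 to 44.7 M (mega-counts) in LLC1 mice and 30.9 to 47.4 M in vehicle mice, a difference of means that was smaller than the spread between libraries (exact two-sided permutation test, p = 0.838). The 10 most abundant genes of each library took 25.2% ± 2.05 (SD, n = 6) of its counts in LLC1 mice and 27.4% ± 1.32 (SD, n = 6) in vehicle mice (exact permutation p = 0.0433, adjusted p = 0.0866 over 4 such tests). Chi-square statistics per degree of freedom for the 30 pairs of libraries within a group were 16.6 to 211, so no library repeated another. Each group had a sequencing lane of its own, and lane and group cannot be told apart. The titles give each library a mouse number, and mice are named by it here. Nothing else in the labels says that libraries are separate animals, and the p-values thus reflect library-to-library spread only. Muscle fibre genes dominated every library: 10 fibre markers summed to 138339.9 to 203839 CPM in LLC1 mice and 166009.6 to 212994 CPM in vehicle mice. Of 8 epithelial markers that a carcinoma cell could carry, 6 were under 1 CPM in all 12 libraries, and the 8 summed to 0.734 to 4.16 CPM in LLC1 mice and 0.736 to 1.41 CPM in vehicle mice. In bulk tissue, fewer cells of a type and less RNA per cell cannot be told apart. A pair of libraries stood apart in markers of other cell types. LLC1 mouse 1-4 had 18.1 CPM summed over 10 T and NK cell markers against 0.631 to 1.52 CPM in its group mates, and 81.9 CPM over B cell markers against 9.25 to 22.5 CPM. Vehicle mouse 1-3 had 788 CPM over 9 tendon cell markers against 168 to 534 CPM in its group mates, and 533 CPM over 8 adipocyte markers against 179 to 262 CPM.

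The response to the tumour was broad. With edgeR's quasi-likelihood test at an adjusted p under 0.05, 5532 of the 13593 genes (40.7%) differed between the groups, 3036 of them higher with LLC1 (22.3%) and 2496 lower (18.4%). Most differences were modest: 311 of the genes that rose and 268 of those that fell did so by at least 2-fold. For 1564 genes (11.5%) the values of the 6 LLC1 mice and the 6 vehicle mice did not overlap. LLC1 mice lay above in 745 (5.48%) and below in 819 (6.03%). Some of these genes reached 1 CPM in 1 group alone, and their separation follows from the rule that chose them. The median log2 fold change of the 13593 genes was 0.01, and other scalings put it between -0.03 and 0.02. Without LLC1 mouse 1-4 the counts were 3344 higher and 2710 lower, and without vehicle mouse 1-3 they were 2634 and 2291. The shares of all 13593 genes, 22.3% higher and 18.4% lower, are the background against which the counts for gene groups below are to be read. The groups were listed with earlier results of these data known, so this comparison is descriptive and not an independent test. Throughout, levels are in CPM scaled between libraries, given as lowest to highest with the median, and log2 fold changes are LLC1 minus vehicle ± the standard error of the fit.

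**Figure D1:**
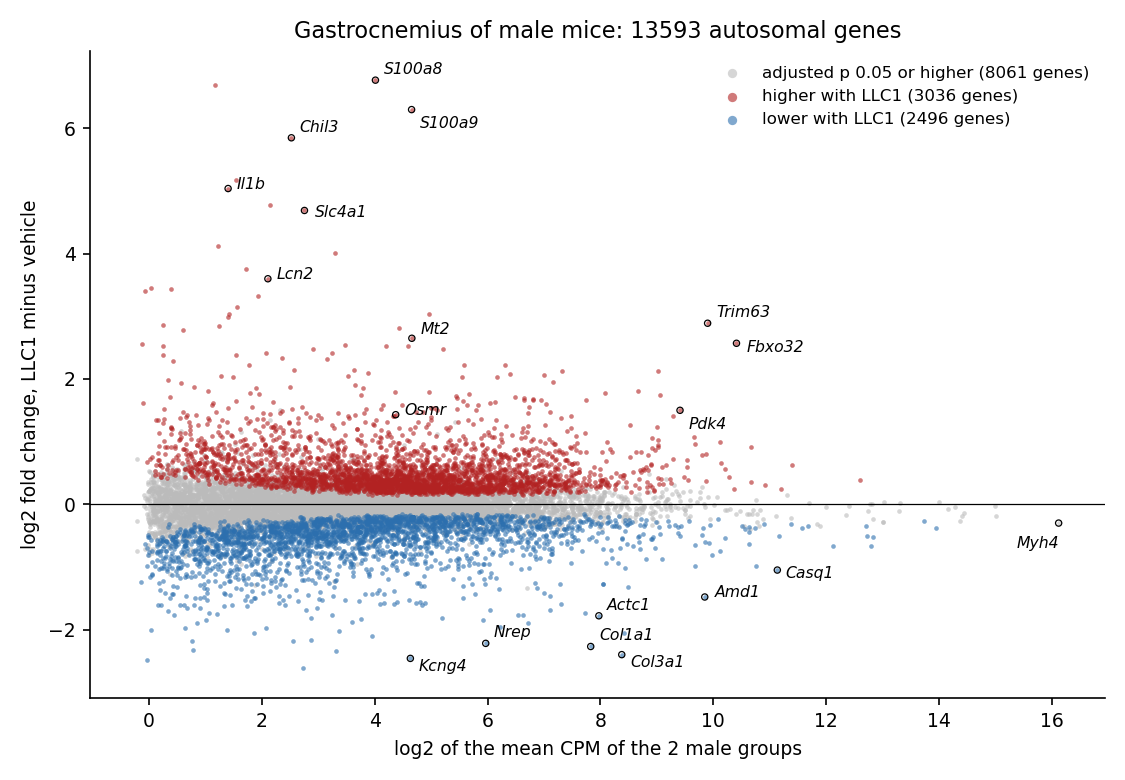
Log2 fold change (LLC1 minus vehicle, male mice) of 13593 autosomal genes against the log2 of their mean CPM, with the 3036 genes that rose in red, the 2496 that fell in blue and the rest in grey. The genes furthest above 0 had low levels, among them S100a8 at 6.77 and Chil3 at 5.85, while the ligases Trim63 and Fbxo32 rose by 2.89 and 2.57 at high levels.

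Genes of protein breakdown rose as a group. Of 26 ubiquitin ligases of muscle, 13 rose and 2 fell (4 fell without LLC1 mouse 2-2), with a median log2 fold change of 0.29, and both subcomplexes of the proteasome rose in full. Trim63 encodes MuRF1, the ligase that tags myosin and other thick-filament proteins. It lies at chromosome 4, 134315120 to 134329629 (mm10), and was at 457 to 2758 CPM (median 1778) in LLC1 mice and 163 to 281 CPM (median 241) in vehicle mice. All 6 LLC1 mice were above all 6 vehicle mice, and the log2 fold change was 2.89 ± 0.37 (adjusted p = 1.32e-05). Fbxo32 encodes atrogin-1, another ligase of muscle wasting. Its level was 909 to 3974 CPM (median 2310) against 291 to 517 CPM (median 393), again without overlap (2.57 ± 0.34, adjusted p = 1.66e-05). Smaller rises were found for Siah1a, a RING ligase (1.01 ± 0.15), Fbxo31 (0.66 ± 0.13) and Fbxo30 (0.69 ± 0.14), the ligase known as MUSA1. Of these 3, Siah1a and Fbxo31 had groups that did not overlap.

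The 250 bases in front of the RefSeq start of Trim63 (GRCm38.p6, whose numbering is that of mm10, chr4:134314870-134315119, plus strand) are shown because this ligase is a textbook target of FoxO factors and rose further than the other ligases of the list. Capitals mark the one match to the FoxO binding motif GTAAACA, searched on both strands.

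Trim63: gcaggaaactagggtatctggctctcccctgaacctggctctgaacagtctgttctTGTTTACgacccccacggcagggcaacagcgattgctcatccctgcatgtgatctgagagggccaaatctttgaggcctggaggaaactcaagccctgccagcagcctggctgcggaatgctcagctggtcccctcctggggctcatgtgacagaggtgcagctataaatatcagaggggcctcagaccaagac

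The match lies on the minus strand, 194 to 188 bases before the start, and reads TGTTTAC on the strand printed. In windows of this length 3.59% of 25748 autosomal genes hold the motif, as do 2.67% of the genes that rose and 2.35% of those that fell. Fbxo32 was looked for in the same table and had no entry.

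Genes that supply and extend ubiquitin chains moved in both directions: of 18 genes of ubiquitin and its conjugation 7 rose and 4 fell, the latter 2 without LLC1 mouse 1-5, 2-1 or 2-4 or vehicle mouse 1-1, 1-2, 1-3 or 2-4. Ubb, a polyubiquitin gene, rose by 0.95 ± 0.16. Ube4a, a factor that extends ubiquitin chains, rose by 0.98 ± 0.15 without overlap. Of 19 deubiquitinases, which trim or remove the chains, 6 rose (3 without LLC1 mouse 1-5 or vehicle mouse 1-3), 1 fell and 12 did not pass. Usp14, which trims chains on the proteasome (0.72 ± 0.17), and Zranb1 (0.82 ± 0.16) were among those that rose, with overlap between the groups.

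All 14 constitutive subunits of the 20S core particle rose, by 0.33 to 1.04 (median 0.73), and all 18 subunits of the 19S regulatory particle rose, by 0.44 to 1.09 (median 0.69). None of the 3 immunoproteasome subunits, which replace core subunits in inflamed tissue, passed the test (-0.26 to -0.05). The LLC1 mice differed here. The median difference of the 3 from the vehicle mean was 0.52 in mouse 1-4 and -0.72, -0.43 and -0.61 in mice 1-5, 2-1 and 2-4. Mice 2-2 and 2-5 lay inside the vehicle range of -0.21 to 0.17. In the core, Psma7 was at 88.3 to 292 CPM (median 126) in LLC1 mice and 67.2 to 83.4 CPM (median 71.2) in vehicle mice (1.04 ± 0.19, adjusted p = 3.28e-04). In the regulatory particle, the ubiquitin receptor Psmd4 was at 144 to 481 CPM (median 231) against 96.0 to 132 CPM (median 125), without overlap (1.09 ± 0.20, adjusted p = 2.82e-04). Psmd11, a lid subunit, and Psmd8 rose by 1.05 ± 0.18 and 1.00 ± 0.17. The size of these rises rested in part on LLC1 mouse 1-5, the highest of its group for all the core and regulatory subunits named here. Without it the core subunit Psmb3 went from 0.88 to 0.55 and the ATPase subunit Psmc4 from 1.01 to 0.67, and 12 of 14 core and 17 of 18 regulatory subunits still passed. Of 17 proteasome activators and assembly or unfolding factors, 8 rose (5 without LLC1 mouse 1-5). They include Nploc4, a partner of the segregase p97 (1.21 ± 0.23), and Ddi2, the protease that activates the proteasome transcription factor Nfe2l1 (0.98 ± 0.16). Psme1, a subunit of the PA28 activator, fell by 0.44 on the log2 scale, with every LLC1 mouse (15.3 to 20.1 CPM) below every vehicle mouse (21.5 to 28.7 CPM).

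Of 30 genes of autophagy initiation and LC3 conjugation 15 rose and 2 fell (median 0.20), the latter 0 without LLC1 mouse 1-5 or 2-1 and 1 without LLC1 mouse 2-4 or 2-5 or vehicle mouse 1-1 or 2-5. Of 13 autophagy receptors 9 rose and none fell (median 0.45), and of 35 genes of the lysosome and its proton pump 16 rose and none fell (median 0.20). The LC3-like proteins that coat the growing autophagosome were represented by Gabarapl1 (1.11 ± 0.21) and Map1lc3b (0.84 ± 0.13), and the initiating kinase complex by Ulk1 (0.71 ± 0.13) and Atg13 (0.61 ± 0.10). Fam134b, the receptor for autophagy of the endoplasmic reticulum, was at 327 to 1651 CPM (median 733) in LLC1 mice and 137 to 216 CPM (median 206) in vehicle mice, without overlap (2.13 ± 0.32, adjusted p = 6.21e-05). The mitophagy receptor Bnip3 rose by 1.27 ± 0.20, also without overlap, and Sqstm1, which encodes the cargo receptor p62, by 0.97 ± 0.19. At the lysosome, the cholesterol exporter Npc1 went from 77.2 to 114 CPM (median 99.8) in vehicle mice to 135 to 408 CPM (median 249) in LLC1 mice (1.41 ± 0.22). The proton pump subunit Atp6v1h rose by 1.54 ± 0.30, but its LLC1 values ran from 16.8 to 96.8 CPM and LLC1 mouse 2-2 lay inside the vehicle range of 15.0 to 17.6 CPM. The proteases and glycosidases Ctsl (0.85 ± 0.16) and Gaa (0.83 ± 0.15), cathepsin L and acid alpha-glucosidase, did not overlap between the groups.

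**Figure D2:**
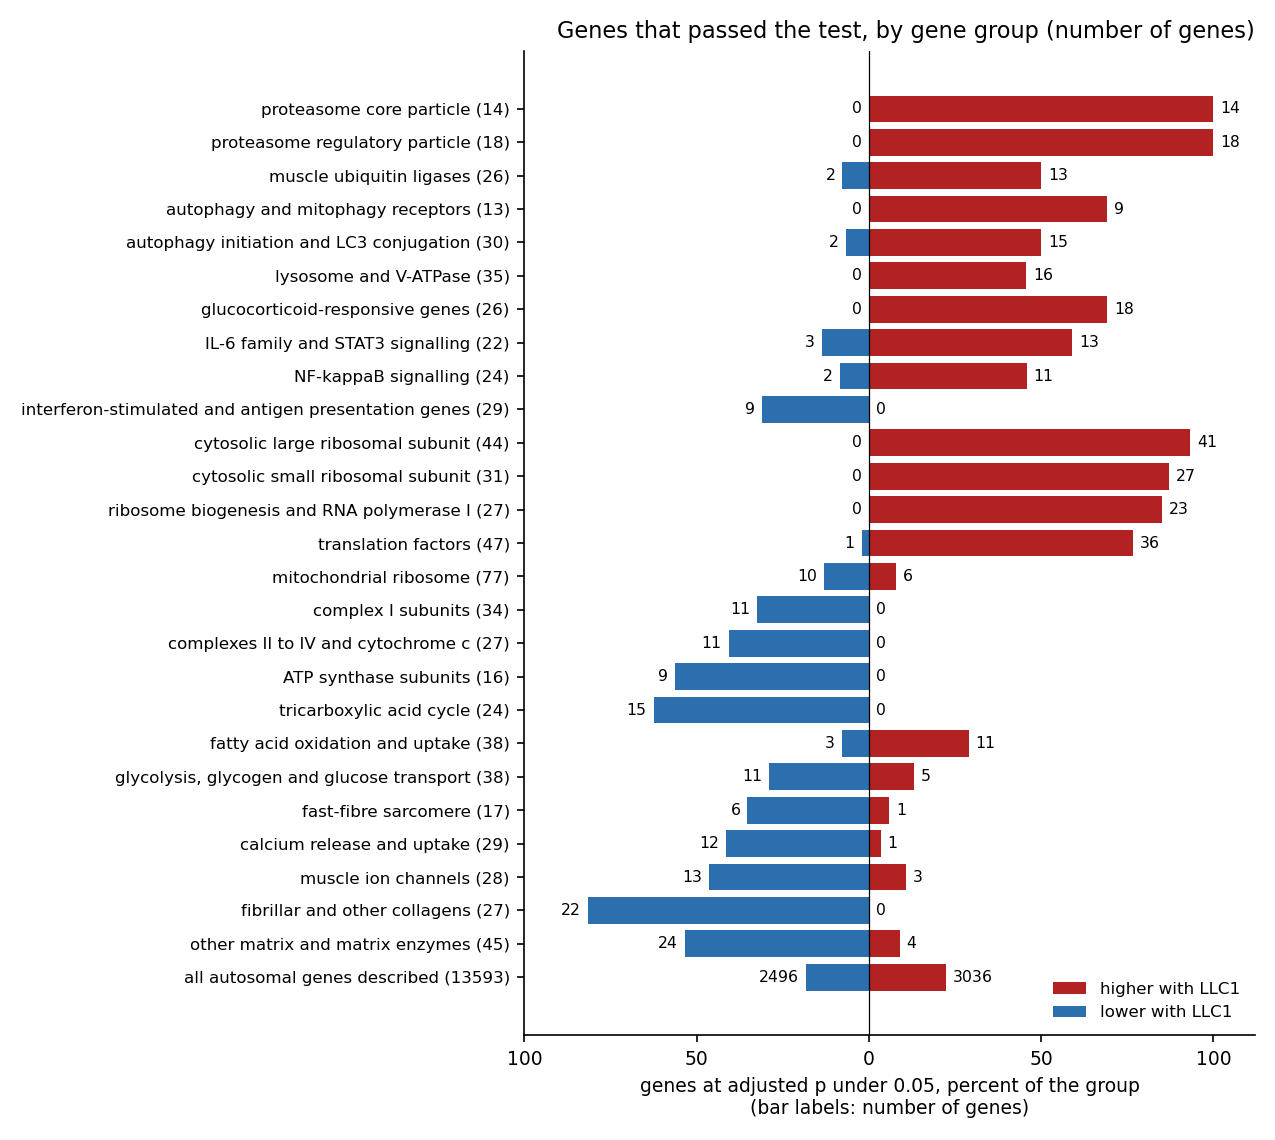
Share of the genes of each group that rose (red, right) or fell (blue, left) at an adjusted p under 0.05, with the number of genes at the bar ends and the group size in parentheses. All 14 and 18 proteasome genes rose and 22 of 27 collagens fell, against 22.3% and 18.4% of all 13593 genes in the bottom bar.

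FoxO factors drive the ligase and autophagy genes above in many wasting models. Foxo3 rose from 26.7 to 36.1 CPM (median 31.8) in vehicle mice to 38.2 to 90.4 CPM (median 68.5) in LLC1 mice, without overlap (1.04 ± 0.17, adjusted p = 1.29e-04). Foxo1 rose by 1.52 ± 0.40 (adjusted p = 0.00538) with overlapping groups, because LLC1 mice 1-4, 2-2 and 2-5 lay below vehicle mouse 1-4, which had 35.3 CPM. The remaining autosomal member, Foxo6, fell: 0.367 to 1.15 CPM in LLC1 mice and 2.38 to 3.41 CPM in vehicle mice (-2.19 ± 0.30, adjusted p = 1.81e-05), a gene chosen after its values were seen. Its antisense neighbour Foxo6os was the largest fall under the naming rule, from 9.29 to 14.5 CPM down to 0.358 to 4.01 CPM (-2.62 ± 0.35). The loci are neighbours on chromosome 4 and the libraries do not mark strand, so reads of the pair are uncertain.

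Growth-arrest genes rose more often than they fell, 9 against 1 of 19. Cdkn1a, the cell-cycle inhibitor p21, was at 36.7 to 128 CPM (median 74.5) in LLC1 mice and 12.7 to 30.0 CPM (median 14.5) in vehicle mice (2.23 ± 0.28, adjusted p = 1.14e-05). Sesn1, a sestrin that restrains mTORC1, was at 44.3 to 256 CPM (median 117) against 23.4 to 31.9 CPM (median 27.2), also at 2.23 (± 0.33). Gadd45a, linked to denervation atrophy, rose by 1.31 ± 0.30, with LLC1 mice 1-4 and 2-2 at 11.3 and 12.2 CPM inside or at the edge of the vehicle range of 9.62 to 12.2 CPM. Btg1, an antiproliferative factor, rose by a smaller amount with less spread, from 9.11 to 14.1 CPM to 16.0 to 23.9 CPM (1.02 ± 0.11, adjusted p = 9.23e-07).

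A list of 26 genes that respond to glucocorticoids had 18 that rose and none that fell (median 0.85). Cebpd, a bZIP factor that also answers to IL-6, was at 6.70 to 45.8 CPM (median 33.7) in LLC1 mice and 3.24 to 9.17 CPM (median 3.96) in vehicle mice (2.52 ± 0.42, adjusted p = 1.73e-04). Fkbp5, a chaperone of the glucocorticoid receptor, rose without overlap from 42.3 to 85.9 CPM to 91.4 to 313 CPM (1.60 ± 0.32). Pik3r1, the regulatory subunit of PI3-kinase, rose by 1.66 ± 0.29 and Glul, glutamine synthetase, by 1.06 ± 0.21. Ddit4, the mTORC1 inhibitor REDD1, rose by 2.03 ± 0.57 (adjusted p = 0.00892) on widely spread values: LLC1 mouse 2-2 had 5.24 CPM, below every vehicle mouse (7.97 to 42.7 CPM), and LLC1 mouse 1-5 had 190.4 CPM. Several genes of the list, Cdkn1a, Sesn1 and Foxo1 among them, also stand in the groups above.

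Metallothioneins bind zinc and rise with glucocorticoids, IL-6 and zinc load. Of 14 genes of metallothioneins and zinc transport 3 rose, 2 fell and 9 did not pass (median 0.11). These shares were near those of all genes described. The 3 that rose are given here, and the falls include the zinc transporter Slc30a9 (-0.26 ± 0.06, without overlap). Mt1 was at 10.9 to 122 CPM (median 54.1) in LLC1 mice and 8.97 to 13.5 CPM (median 11.5) in vehicle mice (2.48 ± 0.48, adjusted p = 6.01e-04), and Mt2 at 5.70 to 78.0 CPM (median 42.5) against 3.51 to 11.7 CPM (median 6.11; 2.65 ± 0.61, adjusted p = 0.00237). For both genes LLC1 mouse 2-2 lay inside the vehicle range. The zinc importer Slc39a14 (ZIP14) rose by 1.80 ± 0.36, from a median of 13.9 CPM to one of 40.4 CPM, and here too LLC1 mouse 2-2, at 15.1 CPM, lay inside the vehicle range of 12.2 to 15.4 CPM. The stretches in front of the metallothionein pair are shown because these neighbours moved together: Mt1 at chr8:94178839-94179088 and Mt2 at chr8:94172368-94172617, both GRCm38.p6 and plus strand, from RefSeq. Capitals mark matches on either strand to the metal response motif, TGCACNC or TGCGCNC, where N is any base.

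Mt1: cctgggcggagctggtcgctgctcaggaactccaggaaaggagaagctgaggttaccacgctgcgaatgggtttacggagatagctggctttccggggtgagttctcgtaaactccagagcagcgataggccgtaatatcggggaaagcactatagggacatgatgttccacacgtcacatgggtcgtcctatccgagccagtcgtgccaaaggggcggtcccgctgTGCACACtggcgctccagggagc

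Mt2: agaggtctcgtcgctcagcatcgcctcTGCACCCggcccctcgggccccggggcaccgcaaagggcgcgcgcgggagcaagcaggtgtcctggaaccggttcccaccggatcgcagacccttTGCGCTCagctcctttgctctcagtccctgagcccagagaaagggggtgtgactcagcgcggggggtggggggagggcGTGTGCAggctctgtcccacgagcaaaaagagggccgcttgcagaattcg

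Mt1 holds 1 match, 23 to 17 bases before its start. Mt2 holds 3, at 223 to 217, 128 to 122 and 50 to 44 bases before its start, the last on the minus strand. The motif is common: 24.1% of autosomal windows and 34.2% of those of the genes described here hold at least 1 match, with 32.6% of the genes that rose and 34.2% of those that fell.

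Several cytokine receptors were higher in every LLC1 mouse than in any vehicle mouse. Of 22 genes of the IL-6 family and STAT3 pathway 13 rose and 3 fell (median 0.72), and in 8 of them all LLC1 mice lay above all vehicle mice. Osmr, the receptor chain for oncostatin M, was at 24.7 to 35.6 CPM (median 30.1) in LLC1 mice and 9.36 to 13.3 CPM (median 11.2) in vehicle mice (1.43 ± 0.13, adjusted p = 3.28e-08). Its values were tight in both groups, unlike those of Il6ra, the ligand-binding chain for IL-6, which ran from 11.3 to 84.7 CPM (median 39.5) against 5.89 to 8.21 CPM (median 7.25; 2.53 ± 0.39). Il4ra, the receptor chain shared by IL-4 and IL-13, rose by 1.58 ± 0.21 without overlap. Socs3, the feedback inhibitor of this pathway and a direct STAT3 target, went from 1.84 to 4.63 CPM (median 3.65) to 6.58 to 10.7 CPM (median 8.98; 1.37 ± 0.24, adjusted p = 2.61e-04). Among acute phase genes 5 of 18 rose, or 3 when any one of 7 libraries was left out (LLC1 mice 1-5, 2-1 and 2-4 and vehicle mice 1-2, 1-4, 2-4 and 2-5). Lcn2, the iron carrier lipocalin-2, was at 3.22 to 11.1 CPM against 0.463 to 0.824 CPM (3.60 ± 0.37) and reached 1 CPM in LLC1 mice alone, and the protease inhibitor Serpina3n rose by 1.90 ± 0.44.

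The stretch in front of Socs3 (chr11:117969367-117969616, GRCm38.p6, minus strand, RefSeq) is shown because the gene answers to STAT3. Capitals mark the match to the STAT motif, TTC and GAA separated by any 3 bases, which reads the same on both strands.

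Socs3: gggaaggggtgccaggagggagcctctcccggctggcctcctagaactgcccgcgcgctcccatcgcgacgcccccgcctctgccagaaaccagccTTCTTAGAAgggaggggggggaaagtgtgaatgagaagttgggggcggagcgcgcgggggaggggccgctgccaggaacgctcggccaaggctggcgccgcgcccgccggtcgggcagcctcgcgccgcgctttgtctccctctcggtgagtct

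The match spans 154 to 146 bases before the start. The motif stands in 8.20% of autosomal windows, in 7.27% of those of genes that rose and in 6.33% of those of genes that fell.

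Of 24 NF-kappaB pathway genes 11 rose and 2 fell. Tnfrsf12a, the receptor for TWEAK that wasting muscle is known to raise, rose by 1.58 ± 0.36 with overlap at its edges, and Icam1, an adhesion molecule for leukocytes, rose from 2.22 to 4.21 CPM to 5.83 to 7.65 CPM in all 6 mice (1.17 ± 0.16, adjusted p = 2.19e-05). The falls were Tnfaip3, the pathway's inhibitor A20 (-1.16 ± 0.21), and Tnfaip2 (-1.09 ± 0.17). The listed interferon-stimulated and antigen presentation genes moved down or did not pass: 9 of 29 fell and none rose, with a median of -0.21. The list does not hold every interferon-inducible gene: Ifitm1 and Slfn4, given below with the myeloid genes, are not on it and rose. Ifit3 was at 1.51 to 3.28 CPM (median 2.44) in LLC1 mice and 3.74 to 6.44 CPM (median 4.76) in vehicle mice (-1.07 ± 0.20, adjusted p = 3.23e-04), without overlap. The interferon-induced GTPases Gbp3 (-1.03 ± 0.20), Iigp1 (median 4.38 against 11.7 CPM) and Gbp4 (-0.86 ± 0.19) had overlapping groups, and reads of close relatives among the guanylate-binding genes can be misassigned.

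Transcripts of neutrophils were present in every LLC1 muscle and close to absent from vehicle muscle. The 13 listed markers summed to 69.6 to 187 CPM (median 135) in LLC1 mice and 3.41 to 8.65 CPM (median 6.85) in vehicle mice, and 4 of them, Camp, Elane, Ly6g and Mpo, stayed under 1 CPM in all 12 libraries. S100a9, a chain of calprotectin, was at 24.4 to 69.5 CPM (median 48.3) against 0.344 to 0.902 CPM (median 0.626), a log2 fold change of 6.30 ± 0.32 (adjusted p = 1.47e-11). S100a8, its partner, differed by 6.77 ± 0.41. Of the 7 markers in the set described, 5 reached 1 CPM through LLC1 mice alone, so that they passed is no separate evidence of a difference. This holds for S100a8, S100a9, Cxcr2 and Retnlg here, and among the myeloid genes outside the list for Il1b, Chil3 and Slfn4. The chemokine receptor Cxcr2 (5.17 ± 0.33), the granulocyte growth factor receptor Csf3r (4.01 ± 0.25), the secreted Retnlg (4.77 ± 0.47) and the cytokine Il1b (5.04 ± 0.31) differed likewise. Chil3, a chitinase-like protein of myeloid cells, differed by 5.85 ± 0.57, and Slfn4 and Ifitm1, also made by myeloid cells, by 3.76 and 3.33. Macrophage and monocyte markers differed little: 2 of 12 rose (4 without vehicle mouse 1-3), the median was 0.09, and the 13 of its genes found in the table summed to 292 to 370.5 CPM against 226 to 372 CPM. Red cell genes rose with the neutrophil genes. The 7 erythroid markers summed to 1211 to 4295 CPM against 426 to 1083 CPM, Hbb-bs rose by 1.74 ± 0.51, and Slc4a1, the anion exchanger of the red cell membrane, rose from 0.210 to 0.971 CPM to 2.62 to 23.5 CPM (4.69 ± 0.85). The part that blood cells or infiltrating cells have in the cytokine and interferon results was not tested.

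**Figure D3:**
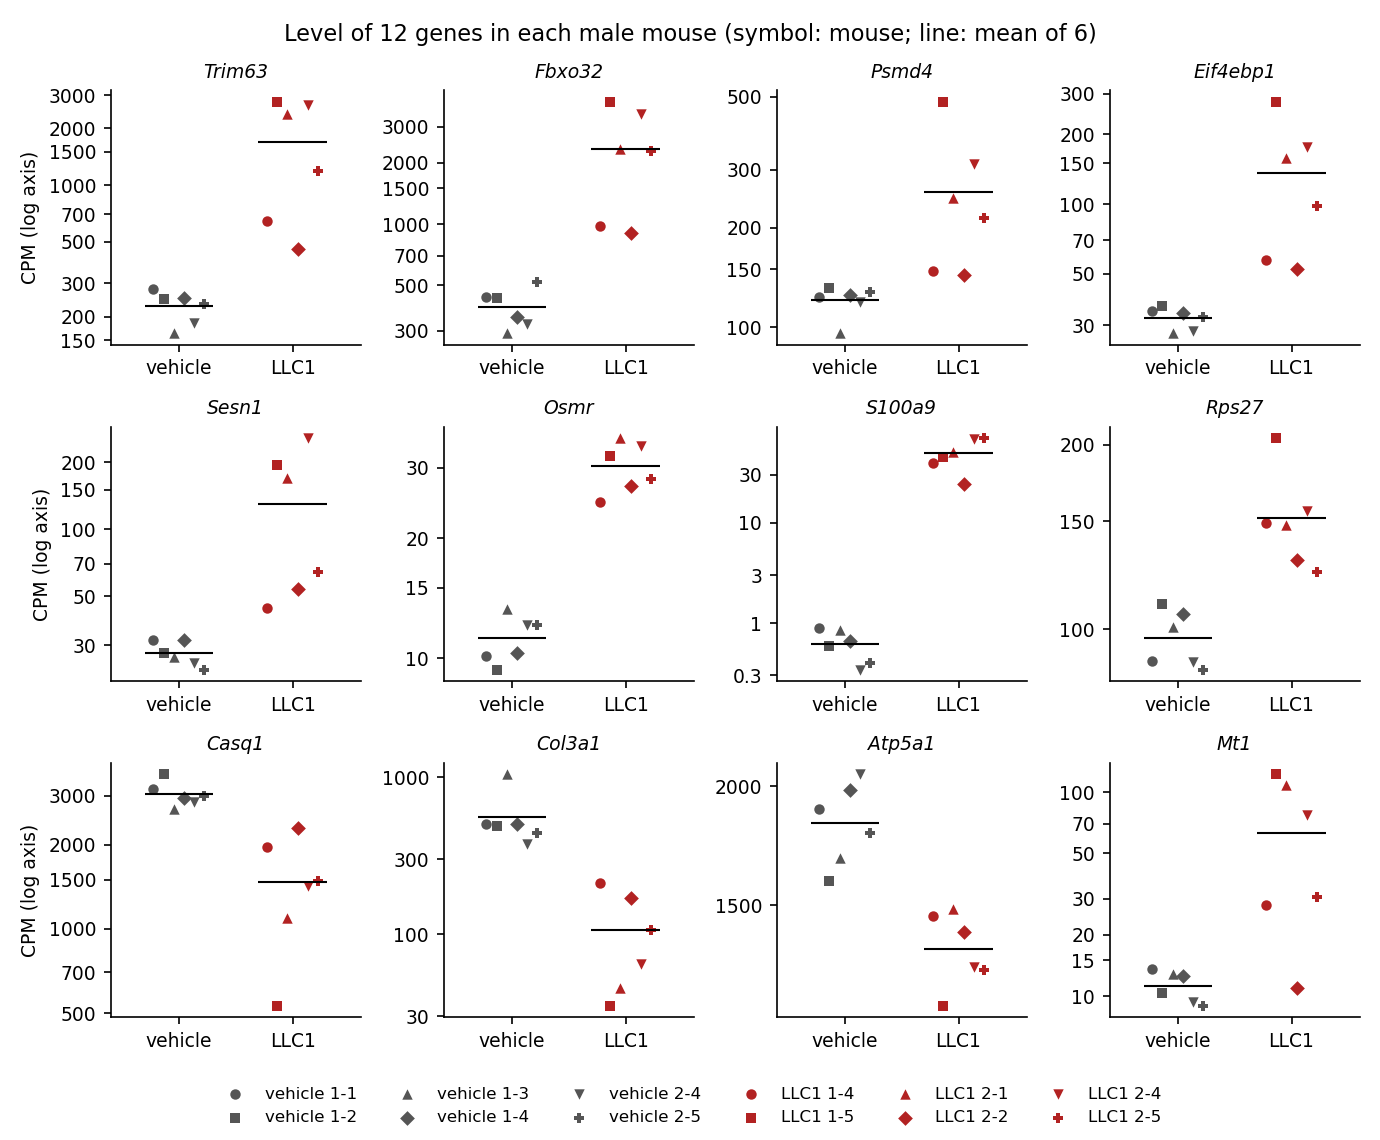
CPM on a log axis of 12 genes in each of the 6 vehicle mice (grey) and 6 LLC1 mice (red), 1 symbol per mouse, with the group mean as a line. LLC1 mice 1-4 and 2-2 (circle and diamond) were the lowest of their group for Trim63, Fbxo32, Psmd4, Eif4ebp1 and Sesn1. For these genes, as for Osmr, S100a9 and Rps27, all 6 LLC1 mice lay above all 6 vehicle mice. S100a9 reached 1 CPM in LLC1 mice alone, so its separation follows from the rule that chose the genes.

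Signals that set muscle size moved in both directions. Of 23 genes of the myostatin and activin axis 9 rose and 6 fell. Mstn, which encodes the growth inhibitor myostatin, was at 107 to 223 CPM (median 137) in LLC1 mice and 72.4 to 113 CPM (median 93.2) in vehicle mice (0.70 ± 0.18, adjusted p = 0.00485). Inhbb, the subunit of activin B, rose from 0.561 to 1.62 CPM to 1.79 to 10.4 CPM (2.22 ± 0.39, adjusted p = 2.37e-04), without overlap. Smad7, the inhibitory Smad, rose by 0.95 ± 0.18, and the follistatin-like Fstl1 fell by 1.10 on the log2 scale (SE 0.24). In the IGF and insulin pathway 10 of 30 genes rose and 6 fell. The growth factor Igf1 fell from 21.2 to 50.6 CPM (median 27.3) to 13.2 to 21.5 CPM (median 16.5; -0.87 ± 0.23, adjusted p = 0.00616), with a narrow overlap. Its binding proteins split: Igfbp5 fell (-1.32 ± 0.32) and Igfbp3 rose (1.14 ± 0.28). Grb14, an adaptor that inhibits the insulin receptor, fell by 1.25 (SE 0.22), and Irs2, the receptor's substrate, rose by 0.85 ± 0.15.

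Among 30 regulators of mTORC1, 8 rose and 5 fell, near the shares of all genes described (22.3% and 18.4%). Eif4ebp1, the translation repressor that mTORC1 releases, was at 52.6 to 276 CPM (median 128) in LLC1 mice and 27.7 to 36.5 CPM (median 33.2) in vehicle mice, without overlap (2.08 ± 0.28, adjusted p = 2.17e-05). Deptor, an inhibitor bound to mTOR, fell by 0.60 (SE 0.16). Of 25 genes of the ATF4 stress response 6 rose and 3 fell, and here too the share that rose was near that of all genes described. Atf4 itself rose by 0.80 ± 0.13 and Ppp1r15a (GADD34), which reverses the block on initiation, by 1.76 ± 0.20, both without overlap. Of 23 amino acid transporters 7 rose and 2 fell, led by Slc43a1, a carrier of large neutral amino acids (1.34 ± 0.24; 46.5 to 111 CPM against 21.1 to 34.1 CPM).

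Genes of the ribosome rose almost as a whole, by small and even amounts. Of 44 large-subunit proteins 41 rose (median 0.34, range 0.18 to 0.52), of 31 small-subunit proteins 27 rose (median 0.33), and no gene of either subunit fell. For 22 and 19 of them all LLC1 mice lay above all vehicle mice. Rps27 was at 124 to 205 CPM (median 148) in LLC1 mice and 86.0 to 109.9 CPM (median 94.8) in vehicle mice (0.65 ± 0.10, adjusted p = 9.01e-05). Rps20 (0.50 ± 0.09) and Rpl11 (0.46 ± 0.09) behaved alike, both without overlap. Many ribosomal protein genes have processed pseudogenes, and the treatment of reads that map to both is not given in the sources used here. With upper-quartile scaling the counts were 36 and 26. Genes that build ribosomes rose by more: 23 of 27 passed (median 0.42), among them Myc, a driver of ribosome production (1.15 ± 0.23), Taf1d, a factor of RNA polymerase I (1.01 ± 0.21), and the processing factor Nop14 (0.76 ± 0.16). Of 47 translation factors 36 rose (median 0.31), with the helicase Eif4a1 at 85.2 to 203 CPM against 77.2 to 96.7 CPM (0.75 ± 0.14) and Eif3a at 226 to 515 CPM against 191 to 241 CPM (0.69 ± 0.14). Of 22 cytosolic aminoacyl-tRNA synthetase genes 13 rose and 1 fell, led by Vars (0.78 ± 0.16). The mitochondrial ribosome did not follow. Of its 77 proteins 6 rose and 10 fell. The falls numbered 5 or 6 without LLC1 mouse 1-5, 2-1 or 2-4 or vehicle mouse 1-4 or 2-4. Mrpl19 was its largest fall (-0.47 ± 0.09), with 9.25 to 15.5 CPM against 15.7 to 18.4 CPM.

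Some nuclear genes of oxidative metabolism fell, by small amounts. No subunit of complexes I to IV or of ATP synthase rose, while 11 of 34 for complex I, 11 of 27 for complexes II to IV with cytochrome c and 9 of 16 for ATP synthase fell, with medians of -0.22, -0.20 and -0.26. The mitochondrial-encoded subunits were not measured, since all 37 mitochondrial genes had 0 counts in the table. Atp5a1, the alpha subunit of ATP synthase, was at 1176 to 1485 CPM (median 1348) in LLC1 mice and 1590.4 to 2058 CPM (median 1839.9) in vehicle mice (-0.44 ± 0.08, adjusted p = 1.79e-04). Ndufs1, a subunit of complex I, was at 265 to 427 CPM against 434 to 565 CPM (-0.52 ± 0.10), and Cyc1 and Uqcrc1, both of complex III, fell by 0.53 and 0.48 on the log2 scale. None of these 4 overlapped between the groups. The counts depended on single libraries. For complex I, 21 genes fell without LLC1 mouse 1-4, 7 without LLC1 mouse 2-4 or vehicle mouse 2-4, and 5 without LLC1 mouse 1-5 or 2-5 or vehicle mouse 1-4. For ATP synthase 3 to 5 fell without LLC1 mouse 1-5, 2-1, 2-4 or 2-5 or vehicle mouse 1-4 or 2-4.

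The tricarboxylic acid cycle was steadier, with 15 of 24 genes lower, none higher and 11 to 16 lower when any one library was left out. Idh3a, of the rate-setting isocitrate dehydrogenase, went from 484 to 640.2 CPM (median 590.3) to 278 to 477 CPM (median 383; -0.56 ± 0.11, adjusted p = 6.02e-04), and malate dehydrogenase Mdh2 (-0.37 ± 0.08) and citrate synthase Cs (-0.35 ± 0.07) fell without overlap too. At the entry to the cycle, Dlat, the E2 subunit of pyruvate dehydrogenase, fell by 0.68 (SE 0.10) and Pdp1, the phosphatase that switches the complex on, by 1.18 (SE 0.26), both without overlap. Pdk4, the kinase that switches it off, was at 214 to 1879 CPM (median 1019.5) in LLC1 mice and 187 to 637 CPM (median 323) in vehicle mice. Its rise of 1.50 ± 0.58 had an adjusted p of 0.0460, which went to between 0.0556 and 0.122 when LLC1 mouse 1-5, 2-1, 2-2 or 2-4 or vehicle mouse 1-1, 1-2, 1-3, 1-4 or 2-4 was left out. Of the regulators of mitochondrial biogenesis, Ppargc1b fell from 11.4 to 14.2 CPM to 2.73 to 9.19 CPM (-1.14 ± 0.20, adjusted p = 2.08e-04) and its partner receptor Esrra by 0.60 (SE 0.15). Ppargc1a, the coactivator PGC-1alpha, fell by 0.35 (SE 0.12, adjusted p = 0.0238), but with an adjusted p of 0.0525 to 0.0598 without LLC1 mouse 1-5 or 2-5 or vehicle mouse 2-4. Sirt3, the mitochondrial deacetylase, fell by 0.69 (SE 0.11) without overlap.

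Fat use genes did not follow the respiratory chain: of 38 genes of fatty acid oxidation and uptake, 11 rose and 3 fell (1 without LLC1 mouse 2-5 or vehicle mouse 1-3, 1-4 or 2-4). The lipase Pnpla2 (ATGL) was at 228 to 555 CPM (median 348) in LLC1 mice and 154 to 238 CPM (median 209) in vehicle mice (0.88 ± 0.18). The acyl-CoA thioesterases Acot1 and Acot2, near-identical neighbours whose reads may be split between them, rose by 1.76 ± 0.36 and 1.52 ± 0.35. Cpt1b, which carries fatty acids into mitochondria, had 203 to 273 CPM against 240.0 to 285 CPM (-0.13 ± 0.07, adjusted p = 0.144). In glycolysis and glycogen metabolism 5 of 38 genes rose and 11 fell. Pgam2, the muscle phosphoglycerate mutase, fell without overlap from 1005 to 1155 CPM (median 1103) to 249 to 856 CPM (median 509; -0.98 ± 0.20, adjusted p = 7.97e-04). Pgm2, which joins glycogen to glycolysis, fell by 0.74 (SE 0.20). Among the genes that rose were Ppp1r3c, a glycogen-targeting subunit of protein phosphatase 1 (1.41 ± 0.32), and Ugp2, which makes UDP-glucose (0.80 ± 0.15).

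Some polyamine and purine enzymes changed in opposite directions, as genes of many groups did. Of 15 genes of polyamine metabolism 4 rose, 5 fell and 6 did not pass (median -0.04). Of 18 genes of the purine nucleotide cycle and nucleotide breakdown 4 rose, 6 fell and 8 did not pass (median 0.02). Odc1, the first enzyme of polyamine synthesis, rose from 114 to 155 CPM (median 121) to 173 to 333 CPM (median 236; 0.93 ± 0.14, adjusted p = 4.27e-05). Amd1, the next regulated enzyme, fell from 1130.1 to 1632 CPM (median 1302) to 157 to 986 CPM (median 396; -1.48 ± 0.28, adjusted p = 4.57e-04), and Smox, which oxidises spermine, by 1.27 (SE 0.31). None of these 3 overlapped. In the purine nucleotide cycle, the muscle AMP deaminase Ampd1 fell by 0.81 (SE 0.21), whereas Ampd3, its counterpart of other tissues and of atrophying muscle, rose from 13.0 to 21.0 CPM to 17.6 to 101 CPM (1.54 ± 0.34), with LLC1 mice 1-4, 2-2 and 2-5 inside the vehicle range. The guanine deaminase Gda rose in all 6 mice, from 12.1 to 17.5 CPM to 27.8 to 46.5 CPM (1.48 ± 0.14, adjusted p = 8.35e-08).

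Messages of the fast myosin heavy chains Myh4, Myh1 and Myh2 were lower by 0.30 to 0.34 on the log2 scale, and of these only Myh1 passed. Several genes that couple excitation to contraction also fell. Of 17 fast-fibre sarcomere genes 6 fell and 1 rose (median -0.29). Myh4, the IIb myosin that makes up most of this muscle's heavy chain message, was at 47013 to 78212 CPM (median 64715) in LLC1 mice and 56959 to 89031 CPM (median 80234) in vehicle mice. It did not pass (-0.30 ± 0.13, adjusted p = 0.0743), although it did without LLC1 mouse 2-2 (0.0320) or vehicle mouse 1-3 (0.0232). Myh1, the IIx myosin, fell by 0.34 (SE 0.11, adjusted p = 0.0219; 0.0503 to 0.0635 without LLC1 mouse 2-5 or vehicle mouse 1-4 or 2-4). Myh2, the IIa form, had -0.34 ± 0.14 (adjusted p = 0.0602; 0.0224 to 0.0490 without LLC1 mouse 1-4 or 2-1 or vehicle mouse 1-2 or 2-5). The slow myosin Myh7 varied widely within each group, from 100.1 to 913 CPM and from 76.2 to 738 CPM, and did not differ beyond that spread (0.06 ± 0.50, adjusted p = 0.936). Myl1, the fast light chain, fell without overlap from 7810.4 to 10333 CPM (median 8565) to 4252 to 6856 CPM (median 5487; -0.66 ± 0.14).

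Of 29 genes of calcium release and uptake 12 fell and 1 rose (median -0.33). Casq1, calsequestrin, the calcium store protein of fast fibres, was at 531 to 2298 CPM (median 1457) in LLC1 mice and 2675 to 3569 CPM (median 2955) in vehicle mice, without overlap (-1.05 ± 0.23, adjusted p = 0.00136). Jph2, which holds the triad membranes together, fell by 0.87 (SE 0.23), and Stac3, a partner of the calcium channel, by 0.61 (SE 0.14), both without overlap. Of 28 ion channel and pump genes 13 fell and 3 rose (1 rose without LLC1 mouse 1-5; median -0.33). The potassium channel subunit Kcng4 went from 31.0 to 57.5 CPM (median 39.5) to 1.38 to 14.8 CPM (median 5.47; -2.46 ± 0.36, adjusted p = 6.23e-05). Kcnf1, another subunit of this family, rose from 2.84 to 9.76 CPM to 7.93 to 32.9 CPM (1.75 ± 0.35). Stress-response and embryonic sarcomere genes split. Csrp3, the Z-disc protein MLP, rose by 1.95 ± 0.44 and Ankrd2, a stretch-responsive ankyrin repeat protein, by 1.66 ± 0.37, while cardiac actin, Actc1, fell from 177 to 642 CPM (median 393) to 67.0 to 179 CPM (median 111; -1.78 ± 0.38) and Mybph, a myosin-binding protein, by 1.89 (SE 0.51).

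Of 23 genes of denervation and the neuromuscular junction 6 rose and 9 fell, the latter 4 or 5 without LLC1 mouse 1-5, 2-1 or 2-4 or vehicle mouse 1-3. The rises include Cdkn1a and Gadd45a, described above among the growth-arrest genes. Chrna1, the receptor subunit that rises when the nerve is lost, had 11.9 to 15.6 CPM against 10.6 to 13.9 CPM (0.20 ± 0.09, adjusted p = 0.0960), and Myog 2.02 to 4.19 CPM against 2.16 to 3.74 CPM (0.18 ± 0.18, adjusted p = 0.451). Ache, acetylcholinesterase, fell from 21.3 to 31.7 CPM to 3.55 to 20.5 CPM (-1.19 ± 0.27, adjusted p = 0.00197), and Runx1, also known from denervated muscle, rose by 1.26 ± 0.27. Among myogenic regulators, Myf6 (MRF4) rose by 0.89 ± 0.12 and Mef2c, a partner of the myogenic factors, fell by 0.69 (SE 0.17). Myod1 did not pass (-0.18 ± 0.19, adjusted p = 0.458). Pax7, the marker of satellite cells, the muscle's stem cells, went from 2.31 to 2.83 CPM to 1.43 to 2.05 CPM in every LLC1 mouse (-0.57 ± 0.13, adjusted p = 0.00196), and Hey1, a Notch target, rose by 1.04 ± 0.24. Among the larger falls were those of Nrep (-2.22 ± 0.34; 4.46 to 41.1 CPM against 92.6 to 121 CPM), the phosphatase Dupd1 (-1.88 ± 0.40), the coactivator Cited4 (-2.05 ± 0.39) and the secreted factor Ostn, musclin (-1.32 ± 0.30), all without overlap.

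Matrix genes fell, the collagens by the most. Of 27 collagen genes 22 fell and none rose, with a median log2 fold change of -1.31, and for 16 of them every LLC1 mouse was below every vehicle mouse. Col3a1, of the type III fibrils that wrap fibres and vessels, was at 35.0 to 211 CPM (median 85.8) in LLC1 mice and 374 to 1042 CPM (median 494) in vehicle mice (-2.40 ± 0.41, adjusted p = 2.06e-04). Col1a1 was at 26.0 to 122 CPM against 206 to 799.7 CPM (-2.27 ± 0.47) and Col1a2 at 66.0 to 182 CPM against 328 to 1043 CPM (-2.05 ± 0.43), the 2 chains of type I collagen. Col6a2, of the microfibrils next to the basement membrane, fell from 92.1 to 186 CPM to 15.3 to 50.4 CPM (-1.96 ± 0.29). Of 45 other matrix genes and matrix enzymes 24 fell and 4 rose (median -0.48), with Fbn1, fibrillin-1 (-1.42 ± 0.34), Loxl2, a collagen cross-linker (-1.54 ± 0.23), and Sparc, a collagen chaperone (-0.94 ± 0.23), all without overlap. The microfibril protein Mfap4, which is not among these 45, fell by 2.17 (SE 0.47), also without overlap. Vehicle mouse 1-3 was the highest of its group for all of these. Without it 18 collagens and 16 other matrix genes fell.

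Markers of the cells that make matrix moved with them. Fibro-adipogenic progenitor markers, from the resident fibroblast lineage, summed to 942 to 1069 CPM in LLC1 mice and 1098 to 1545 CPM in vehicle mice. Of the 10, 5 fell and 1 rose, and their median of -0.51 was smaller in size than that of the collagens. Pdgfra, the lineage's receptor, fell from 52.7 to 61.7 CPM to 35.8 to 45.1 CPM (-0.54 ± 0.18, adjusted p = 0.0205), Lum, the proteoglycan lumican, by 1.25 (SE 0.21), and Smoc2 by 0.81 (SE 0.12), all without overlap. The Wnt inhibitor Frzb, also made by connective tissue, fell by 1.97 (SE 0.23). Tendon cell markers summed to 157 to 269 CPM against 168 to 788 CPM, with vehicle mice 1-3 and 1-4 the highest at 788 and 534 CPM. Of 8, 4 fell, and 2 without vehicle mouse 1-3, among them Cilp2 (-2.19 ± 0.53) and the cornea and tendon proteoglycan Kera (-2.02 ± 0.56). Smooth muscle markers summed to 742 to 929 CPM against 885 to 1038 CPM (4 of 10 fell). Endothelial markers split, 3 higher and 3 lower of 10: Pecam1 (0.54 ± 0.12) and Vwf, von Willebrand factor (0.64 ± 0.17), rose, and the VEGF receptor Kdr fell (-0.62 ± 0.14). The part that the share of these cells, or of tendon in the piece taken, has in the collagen result was not tested.

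Of 15 core clock genes 6 rose and 2 fell, the latter 1 without LLC1 mouse 1-4, 1-5 or 2-1 or vehicle mouse 2-4 or 2-5 and 4 without LLC1 mouse 2-2. Of 12 clock output factors 3 rose and 5 fell, where 22.3% and 18.4% of all genes described rose and fell. The repressor Cry2 rose by 1.11 ± 0.23 and Arntl (BMAL1), which drives the clock, by 1.18 ± 0.22 (adjusted p = 4.53e-04). Per3 fell by 0.89 (SE 0.25) and the output factor Hlf, without overlap, from 16.1 to 27.6 CPM to 6.17 to 14.0 CPM (-1.03 ± 0.17), while its competitor Nfil3 rose by 1.16 ± 0.26. Klf10, a TGF-beta-induced factor listed with the clock output genes, was at 23.5 to 115 CPM (median 62.9) against 14.1 to 32.1 CPM (median 18.8; 1.73 ± 0.30). Nr1d1 (REV-ERBalpha), which represses Arntl, did not pass (-0.20 ± 0.20, adjusted p = 0.445; 0.0186 without LLC1 mouse 2-2, the highest of its group at 235 CPM). The hour at which each muscle was taken is not in the labels. Immediate early genes rose in 9 of 23 and fell in none. Ier3 and the small Maf factor Maff rose by 1.42 ± 0.17 and 1.36 ± 0.19, both without overlap.

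Antioxidant genes rose and sterol genes fell. Of 34 NRF2 and antioxidant genes 15 rose and 3 fell (median 0.28): Nfe2l2, NRF2 itself, rose without overlap from 36.5 to 49.4 CPM to 51.4 to 104 CPM (0.94 ± 0.15), and its targets Srxn1, Gclm and Gsr, of sulfiredoxin, glutathione synthesis and glutathione reduction, by 1.32 ± 0.30, 1.23 ± 0.27 and 1.14 ± 0.19. For these targets LLC1 mice 1-4 and 2-2 were the nearest of their group to the vehicle values. Of 37 heat shock genes 16 rose (10 without LLC1 mouse 1-5) and none fell, such as Hspb7 (1.03 ± 0.26) and the cochaperone Dnajb6 (0.61 ± 0.14). The unfolded protein response factor Xbp1 rose by 0.62 ± 0.10, whereas the chaperone Hspa5 (BiP) did not pass (0.15 ± 0.13, adjusted p = 0.368). Of 25 cholesterol synthesis and uptake genes 11 fell and 3 rose. Dhcr7, the last step to cholesterol, went from 5.16 to 6.89 CPM to 1.50 to 4.67 CPM (-1.11 ± 0.21). The desaturase Scd1 fell by 1.59 (SE 0.43) and Gpam, which starts triglyceride synthesis, by 0.70 (SE 0.15). Lpin1, a phosphatidate phosphatase that also coactivates fat oxidation genes, rose from 291 to 403 CPM to 478 to 868 CPM (0.92 ± 0.14).

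The 6 LLC1 mice did not respond alike. For each group of genes, the median difference of a mouse from the mean of the vehicle mice was taken. For the proteasome core it was 0.31, 1.55, 0.71, 0.08, 0.84 and 0.34 in LLC1 mice 1-4, 1-5, 2-1, 2-2, 2-4 and 2-5, against -0.10 to 0.20 in the vehicle mice. LLC1 mouse 2-2 thus lay inside the vehicle range and LLC1 mouse 1-5 far above it. Glucocorticoid-responsive genes gave 0.60, 1.19, 1.30, 0.05, 1.34 and 0.65 in the same order, and calcium handling genes -0.25, -0.65, -0.39, 0.04, -0.44 and -0.16. In both, mouse 2-2 was again the one nearest to vehicle mice, and mice 1-5, 2-1 and 2-4 were the furthest. Other groups were changed in every LLC1 mouse. Genes of the IL-6 and STAT3 pathway stood at 0.48, 0.69, 0.78, 0.41, 0.81 and 0.67, and the large ribosomal subunit at 0.36, 0.58, 0.29, 0.26, 0.36 and 0.23. Collagens stood at -0.89, -1.77, -1.49, -0.83, -1.26 and -1.03, below all vehicle mice (-0.30 to 0.69). The ATP synthase median was 0.05 in LLC1 mouse 1-4, inside the vehicle range of -0.22 to 0.16, and lowest, at -0.46, in LLC1 mouse 2-5, which was neither among the highest for the proteasome nor for glucocorticoid-responsive genes. Slow-fibre genes ran from -0.83 to 0.67 in LLC1 mice and from -0.74 to 0.89 in vehicle mice. Tumour size per mouse is not in the labels, so these values could not be set against it.

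**Figure D4:**
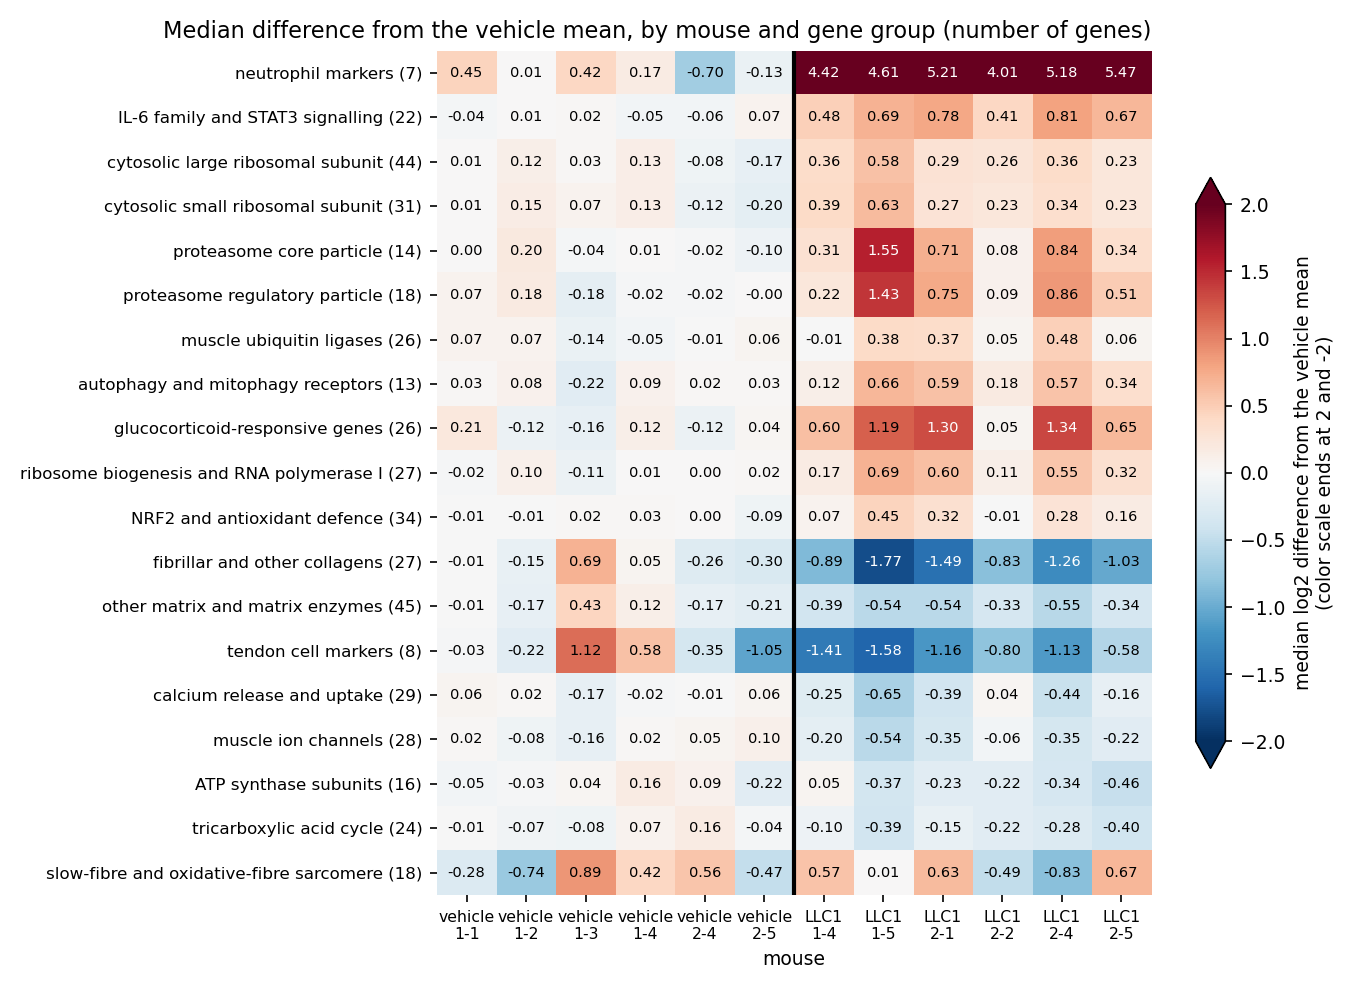
Median log2 difference from the vehicle mean over the genes of each group (rows) in each male mouse (columns), with the value in each cell and colours that saturate at 2 and -2. Proteasome, glucocorticoid-responsive and calcium genes of LLC1 mouse 2-2 are near vehicle values, while its collagens (-0.83) and both ribosomal subunits are not. Of the 7 neutrophil markers 5 reached 1 CPM in LLC1 mice alone.

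The female arm of the study, with 6 LLC1 and 6 vehicle mice of its own, was fitted in the same model and gives values to set beside these. In females 1468 of the 13593 genes (10.8%) passed the test. No gene passed the test of the difference between the male and the female response (edgeR, adjusted over all genes tested), with 1888 at an unadjusted p under 0.05 and 41 by DESeq2. For the proteasome core 14 of 14 genes passed in males and 0 in females, with medians of 0.73 and 0.12, and for the large ribosomal subunit 41 and 0 of 44 passed, with medians of 0.34 and 0.03. For complex I the counts were 11 lower in males and 24 in females, with medians of -0.22 and -0.36. Osmr (1.51 ± 0.13 in females), S100a9 (6.30 ± 0.33) and Gda (1.56 ± 0.14) had female values close to the male ones. Cdkn1a had -0.05 ± 0.27 in females against 2.23 ± 0.28 in males (adjusted p of the difference 0.0950), Arntl -0.24 ± 0.22 against 1.18 ± 0.22 (0.154) and Hlf 0.12 ± 0.17 against -1.03 ± 0.17 (0.154). Trim63 had 1.22 ± 0.35 in females (adjusted p of the difference 0.243). None of these differences between the sexes passed.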

How the data were processed

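Poly(A) RNA of gastrocnemius muscle from 24 libraries, 12 of them male, was sequenced with an unstranded kit, per the labels' protocols. The authors deposited 1 table of raw read counts per gene for all libraries; CASAVA, STAR, featureCounts and the genome mm10 stand in the submitters' processing notes, with no versions in the labels. The counts were tested with edgeR 4.0.16 in R 4.3.3 (quasi-likelihood F-test, robust, TMM scaling, default expression filter). All 24 libraries entered 1 fit of 4 group means, and Benjamini-Hochberg adjustment ran over the 17773 genes tested, on all chromosomes. The threshold was an adjusted p of 0.05, and standard errors are the log2 fold change over the square root of F. Levels are TMM-scaled CPM. Depth was 30.8 to 47.4 mega-counts per library.

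The gene lists and the genes named in the text were chosen with earlier results of these data known. Named genes are a hand-written list of wasting genes, up to 4 genes per list with the largest change, and the 12 largest rises and 12 largest falls without overlap and above 5 CPM; some genes that the rule names are not reported here. Of the 13593 genes, 1601 share exons with an overlapping gene, 558 of those among the genes that passed. Alternatives were DESeq2 1.42.0, limma 3.58.1 (voom), other scalings and filters, replicate blocks, male libraries alone, and leaving out each male library. On simulated counts for 14219 genes of the male comparison, 199 of 200 changed genes and 11 of 14019 unchanged ones passed. Of the 5532 genes that passed in the data, 311 rose and 268 fell by at least 2-fold. The pass rate for changes under 2-fold, or for genes with wider spread, was not tested. The simulation changed 200 genes, far fewer than the 5532 that passed in the data. Scaling and the rate of false calls with so many changed genes were thus not tested either. Promoter windows came from RefSeq on GRCm38.p6: 4 of the 5 genes looked for had an entry.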

Additional observations from a re-analysis of the deposited data

Results flagged for a closer look

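Levels of 186 of the genes named and 4 library measures were examined in each male group of 6 mice for a highest or lowest value far from its nearest neighbour. This was the case in 33 of 380 groups, and chance alone gives about 1 in 20. Of these, 18 were values of vehicle mouse 1-3. It was the highest vehicle mouse for the matrix genes Col1a1 at 799.7 CPM (next 419), Col3a1 at 1042 (505), Col6a2 at 186 (119), Sparc at 758 (455), Lum at 54.9 (36.8), Fstl1 at 136 (93.9) and Igfbp5 at 667 (509.8). It was also the highest for Btg1 at 14.1 CPM (9.53), Cited4 at 9.30 (5.89), Dupd1 at 30.7 (20.2), Runx1 at 4.06 (2.73), Serpina3n at 9.71 (5.54) and Tnfaip2 at 45.3 (32.8). The same mouse was the lowest vehicle mouse for Myh4 at 56959 CPM (next 77697), Fam134b at 137 (188), Atg13 at 35.5 (47.2) and Psmd4 at 96.0 (119), and its 10 most abundant genes took 24.9% of its counts (next 27.1%).

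Among the other vehicle mice, mouse 1-1 was the highest for Cdkn1a at 30.0 CPM (15.8) and Ddit4 at 42.7 (20.5), and mouse 1-2 for Klf10 at 32.1 (20.2), Myl1 at 10333 (8633) and Psmc4 at 80.8 (72.0). Mouse 1-4 was the highest for Foxo1 at 35.3 CPM (22.7) and had the largest library, at 47.4 mega-counts (33.7), and mouse 2-5 was the highest for Myc at 6.59 CPM (3.41). In the LLC1 group, mouse 1-5 was the highest for the proteasome genes Psmb3 at 237 CPM (117) and Psmc4 at 299.5 (154) and the ribosomal genes Rpl11 at 174 (132) and Rps20 at 280.3 (224). LLC1 mouse 2-2 was the highest for Gbp4 at 12.5 CPM (7.31) and Nr1d1 at 235 (131), and LLC1 mouse 1-4 for Tnfaip3 at 5.76 (3.02).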

How the results depend on the processing

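The 3036 higher and 2496 lower genes numbered 3226 and 2595 with DESeq2, 3077 and 2434 with relative log expression factors, 2551 and 2910 with upper-quartile factors, 2526 and 2126 with no expression filter, and 2544 and 2275 with male libraries alone. When 1 male library was left out, higher genes numbered 2356 to 3344 and lower genes 1915 to 2794. Title numbers were tried as a replicate block. The 3 numbers that both groups share had correlations of -0.054, -0.0263 and -0.00983 between deviations from the group means. Pairs with the same first number averaged 0.0358 and pairs with different first numbers -0.0281. So few shared numbers cannot settle whether the numbers mark related mice. The replicate block on the full number, which leaves few shared numbers, gave 1679 higher and 1409 lower genes, and the block on the first number 3031 and 2468. For the test of the difference between sexes, 0 genes became 6 with the first-number block, 2 with limma-voom and sample weights, 41 with DESeq2 and 0 to 7 when 1 male library was left out. Among 186 of the genes named, 165 kept their call with the full-number block and at least 182 with every other alternative. Of 117 counts of risen or fallen genes in the lists, 51 moved by over 1.5 times with the full-number block: core proteasome subunits that rose went from 14 to 9, proteasome activators from 8 to 3 and deubiquitinases from 6 to 2. Myh7 (0.06) changed sign without passing: -0.18 and -0.10 with the full-number and first-number blocks, and -0.31 (without LLC1 mouse 2-5) to 0.31 (without vehicle mouse 1-3) when 1 library was left out, with -0.15 without vehicle mouse 1-2 and -0.06 without LLC1 mouse 2-1 or vehicle mouse 1-1 or 2-5. The difference in total counts (0.935 mega-counts) ran from -0.819 without LLC1 mouse 2-4 and -0.0131 without LLC1 mouse 2-5 to 3.41. The difference in the share of the 10 most abundant genes (-2.18 percentage points) ran from -2.68 to -1.46, with exact permutation p-values up to 0.0887. The causes of these changes were not tested.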
